A study of Mus musculus with 24 samples.

Results

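DNA methylation in the mouse is written by the DNA methyltransferases and removed through the TET enzymes, and 8 genes of this machinery were followed here through the differentiation of embryonic stem cells with and without the signal transducers SMAD2 and SMAD3. They were Dnmt3a, Dnmt3b and Dnmt3l of the de novo branch, Dnmt1 and Uhrf1 of the maintenance branch, and the oxidases Tet1, Tet2 and Tet3. The 8 were picked by name from the 53379 genes of the deposited RNA-seq tables, each found there by its gene identifier under GENCODE M21. All 8 had enough reads to be among the 19470 genes that were tested.

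The RNA-seq part of the study holds 10 libraries of the mouse embryonic stem cell line E14Tg2a.IV, in 5 groups of 2. The groups were embryoid bodies at day 4 from Smad2/3 double-knockout cells (Smad2/3DKO), from Smad2-/- cells, from Smad3-/- cells and from wild-type cells, and wild-type stem cells at day 0. Embryoid bodies (EBs) are the round aggregates that stem cells form in suspension once LIF, the cytokine that holds them in self-renewal, is left out, and they mix several early cell types. Both libraries of a knockout came from 1 cell line, and nothing in the labels says that the 2 libraries of a group were separate cultures, so the tests measure the spread between these libraries, which may be technical. SMAD2 and SMAD3 carry the Nodal and Activin signal into the nucleus, where FOXH1 is a partner of theirs on DNA. The series also has 14 ChIP-seq samples, not analysed here.

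DNMT3A and DNMT3B add methyl groups to unmethylated CpG dinucleotides. DNMT3L has no catalytic activity and acts as their cofactor, and DNMT1 copies methylation onto the new strand after replication, guided there by UHRF1, which binds hemimethylated DNA. TET1, TET2 and TET3 oxidise 5-methylcytosine, the first step of active demethylation. In the mouse embryo the change from the naive to the primed epiblast goes with a wave of de novo methylation, for which Dnmt3b is known as the main enzyme gene that is turned on. DNMT3L is abundant in naive stem cells, TET1 and TET2 are the TET enzymes of pluripotent cells, and TET3 is known from the egg and from later lineages.

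The promoters of these genes hold CpG dinucleotides themselves, the substrate of the enzymes they encode. The 250 bases before the annotated start are shown for the 3 genes of the de novo branch, since 2 of them moved together and the third moved the other way. Capitals mark CpG dinucleotides. The sequences are RefSeq's, on build GRCm38.p6 (mm10).
Dnmt3b, chr2:153649199-153649448, plus strand: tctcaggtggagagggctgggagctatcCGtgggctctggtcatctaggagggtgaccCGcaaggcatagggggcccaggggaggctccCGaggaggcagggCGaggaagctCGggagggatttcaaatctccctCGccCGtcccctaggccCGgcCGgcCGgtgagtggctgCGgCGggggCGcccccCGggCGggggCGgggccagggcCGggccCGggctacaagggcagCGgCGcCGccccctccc
Dnmt3a, internal start, chr12:3891494-3891743, plus strand: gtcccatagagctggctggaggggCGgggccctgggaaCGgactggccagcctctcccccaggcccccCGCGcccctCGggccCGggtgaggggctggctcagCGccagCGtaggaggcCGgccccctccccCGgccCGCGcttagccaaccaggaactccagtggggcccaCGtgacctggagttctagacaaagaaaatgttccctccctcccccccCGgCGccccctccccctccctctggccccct
Dnmt3l, second annotated start, chr10:78049592-78049841, plus strand: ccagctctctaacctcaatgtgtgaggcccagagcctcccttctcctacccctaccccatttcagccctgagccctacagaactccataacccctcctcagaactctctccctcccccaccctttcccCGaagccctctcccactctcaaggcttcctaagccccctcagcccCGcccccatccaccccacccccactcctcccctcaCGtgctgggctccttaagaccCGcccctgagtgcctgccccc
The Dnmt3b window held 21 CpG dinucleotides, more than 83.7% of all annotated mouse promoters, and the Dnmt3a window, the start used for the shorter protein of stem cells, DNMT3A2, held 15 (more than 72.7%). The Dnmt3l window held 4, more than 37.8% of promoters. Across the 15 annotated promoters of the 8 genes the count ran between 2 and 51 with a median of 15. The median was 6 over 32851 promoters of 27025 genes. The core SMAD motif CAGAC, read on either strand, was in 4 of the 15 windows and in 42.2% of all promoters. The FOXH1 motif AATNNACA was in 0 of the 15 and in 10.9% of all promoters. None of the 3 windows printed here held either motif, which says nothing of binding elsewhere.

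Library totals lay between 35733249 and 53672980 expected counts, the fractional read assignments of RSEM. Levels are given as CPM, read counts relative to library size after TMM scaling, where libraries are compared. Where genes are compared or summed, levels are the deposited TPM, which is per transcript length. Differences are given as log2 fold changes of the first-named group over the second with their standard errors (SE). Adjusted p-values come from edgeR's quasi-likelihood test with Benjamini-Hochberg adjustment over the 19470 genes. A gene was called at an adjusted p under 0.05. Smad2 RNA averaged 22.4 ± 0.34 CPM in double-knockout EBs and 19.8 ± 0.80 CPM in Smad2 knockout EBs, against 44.1 ± 8.20 CPM in wild-type EBs (SD, n = 2 each), and was called lower in both (log2 -0.98, adjusted p = 0.0047, and -1.16, adjusted p = 0.00245). Wild-type day 0 cells had 20.5 ± 2.05 CPM of Smad2. Double-knockout and Smad2 knockout EBs differed from them by 0.13 (adjusted p = 0.574) and -0.05 (adjusted p = 0.865). Smad3 RNA averaged 49.2 ± 0.68 CPM in the EBs labelled Smad3 knockout and 43.4 ± 2.00 CPM in wild-type EBs (log2 0.18, adjusted p = 0.607), so its level does not check that label. In double-knockout EBs it averaged 26.8 ± 1.60 CPM and was called lower than in wild-type EBs (log2 -0.69, adjusted p = 0.0136). The file names fall into 2 series, the second of which holds replicate 2 of every group but the double knockout. The deposited FPKM values summed to between 1009683 and 1128184 in the libraries of Smad2 knockout EBs and of day 0 cells. They summed to between 684373 and 780112 in the other 6 libraries. This sum is higher where reads sit on shorter transcripts. Removing each library's trend of counts with transcript length was therefore run as an alternative.

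Of the 8 genes, 6 were called between wild-type EBs and day 0 cells, where 52.1% of all genes tested were called. Between Smad2 knockout and wild-type EBs 5 were called (35.5% of all genes), between EBs labelled Smad3 knockout and wild-type EBs 1 was called (0.555% of all genes), and between double-knockout and wild-type EBs 5 were called (23.1% of all genes). The median log2 fold change of the 8 was -0.93 in Smad2 knockout EBs, -0.54 in EBs labelled Smad3 knockout and 0.20 in double-knockout EBs, each against wild type. The medians of all genes there were -0.01 in Smad2 knockout EBs, -0.04 in EBs labelled Smad3 knockout and -0.05 in double-knockout EBs. Between wild-type EBs and day 0 cells it was -0.16, against 0.10 for all genes. These 4 comparisons share the wild-type EB libraries. The count of all genes called in EBs labelled Smad3 knockout was 108, and it lay between 3 without Smad3 knockout replicate 1 and 2709 without wild-type EB replicate 2.

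**Figure D1:**
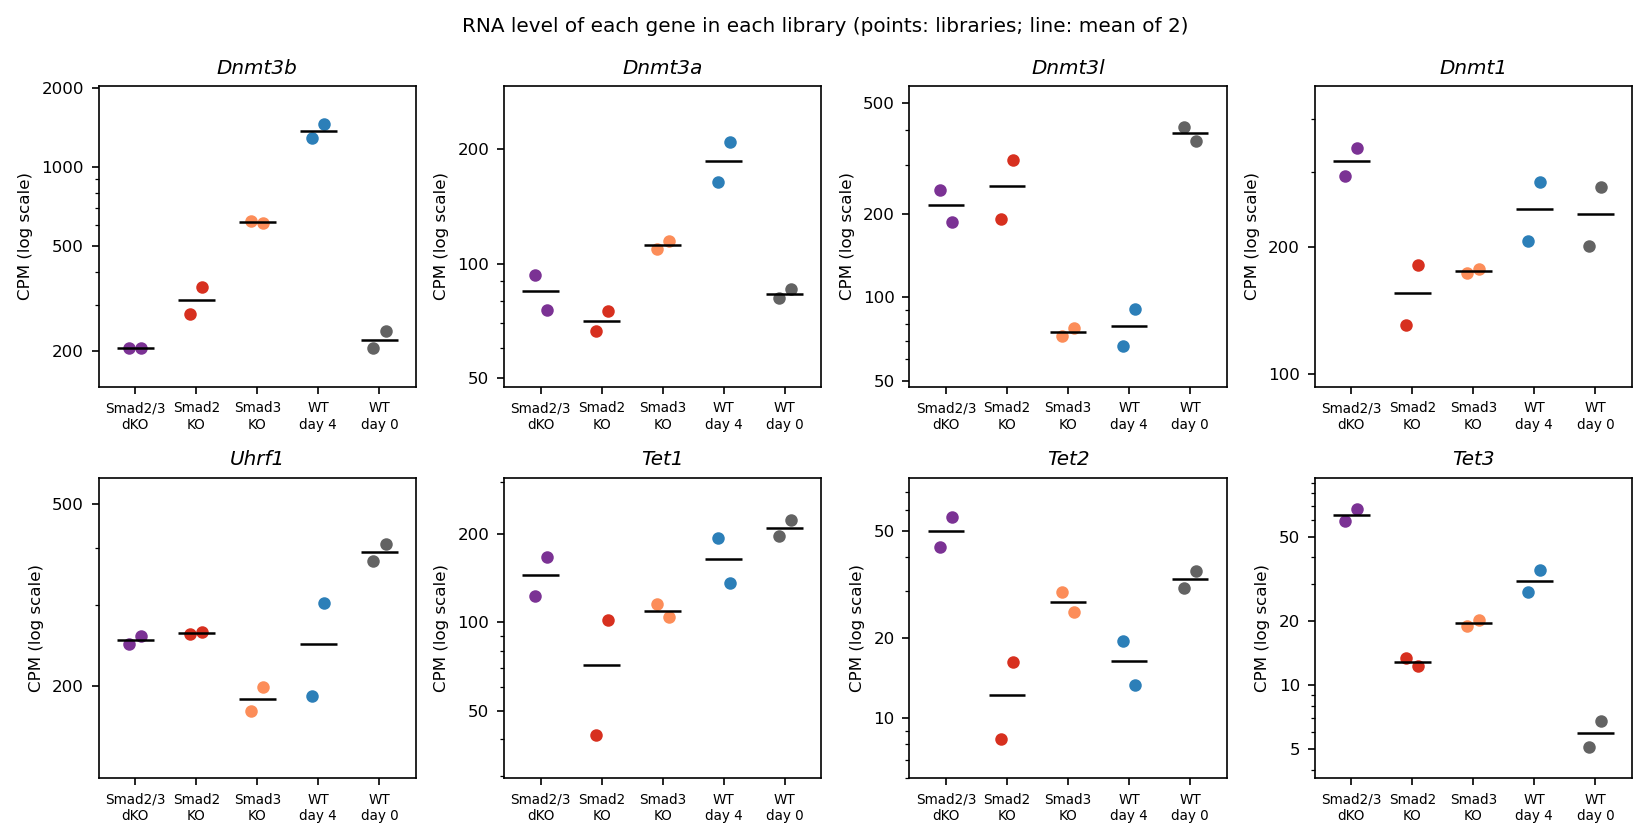
Level of each of the 8 genes in every library, in CPM on a log axis, with 1 point per library and the groups in the order Smad2/3 double knockout, Smad2 knockout, Smad3 knockout, wild type day 4 and wild type day 0. Dnmt3b stands at 1293 and 1453 CPM in wild-type EBs and at 205 CPM in both double-knockout libraries, and Tet3 is lowest at day 0 with 5.11 and 6.77 CPM.

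Dnmt3b rose in wild-type EBs over day 0 cells and was lower in each mutant than in wild-type EBs. It is annotated (ENSMUSG00000027478.15) at chr2:153649450-153687730 on the plus strand (mm10). Dnmt3b had 205 and 205 CPM in double-knockout EBs, 276 and 352 CPM in Smad2 knockout EBs and 624 and 616 CPM in EBs labelled Smad3 knockout. Wild-type EBs had 1293 and 1453 CPM and day 0 cells had 205 and 238 CPM. Wild-type EBs stood above every other library, the EBs labelled Smad3 knockout came next without overlap, then Smad2 knockout EBs, while double-knockout EBs and day 0 cells overlapped. The rise in wild-type EBs over day 0 cells was 2.63 (SE 0.19, adjusted p = 3.07e-05). It was lower than in wild-type EBs in each mutant, by -2.74 in double-knockout EBs (SE 0.19, adjusted p = 3.5e-05), by -2.13 in Smad2 knockout EBs (SE 0.19, adjusted p = 0.000332) and by -1.15 in EBs labelled Smad3 knockout (SE 0.18, adjusted p = 0.0351). The last call was lost on log2(TPM + 1) (-1.01, adjusted p = 0.0534) and when only the compared groups were fitted (-1.06, adjusted p = 0.212). It was also lost without 7 of the 10 libraries in turn (-1.20 to -1.06 over all 10, highest adjusted p 0.359), namely both libraries of the Smad3 knockout, the double knockout and day 0, and wild-type EB replicate 1. The other 3 of these comparisons kept their calls with the length trend removed, at 1.88 in wild-type EBs over day 0, -2.71 in double-knockout EBs and -1.58 in Smad2 knockout EBs. Within the first and the second series of file names, Dnmt3b differed by -2.23 and -2.05 in Smad2 knockout EBs, by -1.05 and -1.24 in EBs labelled Smad3 knockout, and by 2.66 and 2.61 in wild-type EBs over day 0.

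Dnmt3a encodes the second catalytic de novo enzyme (ENSMUSG00000020661.15) and spans chr12:3806007-3914443 on the plus strand. Dnmt3a had 93.6 and 75.5 CPM in double-knockout EBs, 66.4 and 75.1 CPM in Smad2 knockout EBs and 109 and 114 CPM in EBs labelled Smad3 knockout. Wild-type EBs had 163 and 209 CPM and day 0 cells had 81.1 and 85.5 CPM. Again both wild-type EB libraries were above all others, and double-knockout EBs overlapped day 0 cells. Dnmt3a rose in wild-type EBs over day 0 by 1.16 (SE 0.18, adjusted p = 0.00088), a call that was lost with the length trend removed (0.14, adjusted p = 0.556). It fell by 1.4 in Smad2 knockout EBs (SE 0.18, adjusted p = 0.00127) and by 1.14 in double-knockout EBs (SE 0.18, adjusted p = 0.00228) relative to wild-type EBs. With the length trend removed the value in Smad2 knockout EBs was -0.63 (adjusted p = 0.0425). In EBs labelled Smad3 knockout the difference of -0.74 was not called (adjusted p = 0.105).

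Dnmt3l, the cofactor, went the opposite way to its catalytic partners. Dnmt3l (ENSMUSG00000000730.13) lies at chr10:78041947-78063622 on the plus strand. It had 243 and 187 CPM in double-knockout EBs, 191 and 310 CPM in Smad2 knockout EBs and 72.7 and 77.9 CPM in EBs labelled Smad3 knockout. Wild-type EBs had 66.8 and 90.6 CPM and day 0 cells had 410 and 366 CPM. Double-knockout and Smad2 knockout EBs overlapped each other and stood above the other EBs, and day 0 cells were higher still. Dnmt3l fell by 2.30 in wild-type EBs relative to day 0 (SE 0.27, adjusted p = 0.000202). It was higher than in wild-type EBs by 1.45 in double-knockout EBs (SE 0.26, adjusted p = 0.00392) and by 1.67 in Smad2 knockout EBs (SE 0.26, adjusted p = 0.00236). It differed by -0.06 in EBs labelled Smad3 knockout (SE 0.25, adjusted p = 0.930). Dnmt3l overlaps Aire, a regulator of self-antigen expression on the opposite strand, which averaged 87.1 ± 6.48 CPM in double-knockout EBs, 48.0 ± 16.3 CPM in Smad2 knockout EBs and 41.7 ± 6.81 CPM in EBs labelled Smad3 knockout. Wild-type EBs had 18.3 ± 6.70 CPM and day 0 cells had 68.2 ± 8.05 CPM (SD, n = 2 each). No source used here gives the strandedness of the libraries. Reads where the 2 genes overlap therefore cannot be told apart with certainty. The rodent paralogue Dnmt3c had between 0 and 7.49 expected counts a library and was too low to test.

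**Figure D2:**
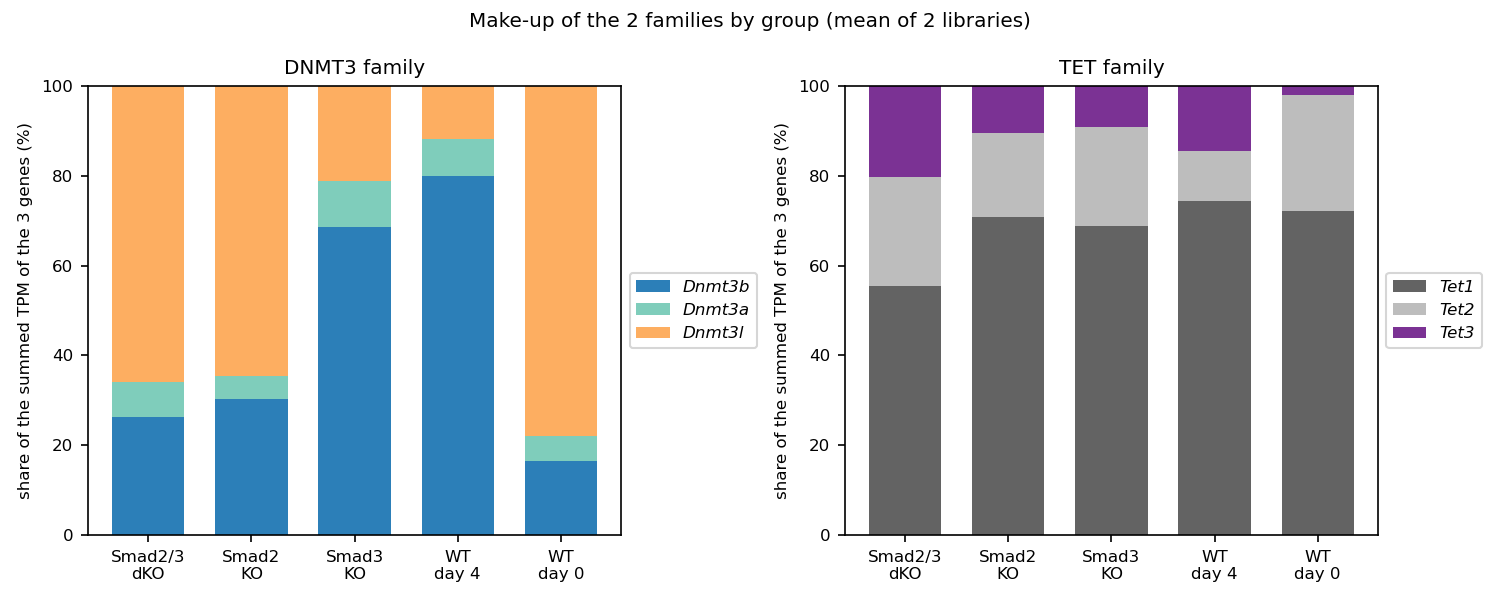
Share of the summed TPM that each gene takes among the 3 DNMT3 genes (left) and the 3 TET genes (right), in percent. Stacked bars show the mean of 2 libraries for each group. Dnmt3b takes 79.9% of the DNMT3 total in wild-type EBs and 26.3% in double-knockout EBs, where Dnmt3l takes 66.0%, and Tet3 takes 20.3% of the TET total in double-knockout EBs and 1.94% at day 0.

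Per transcript length, Dnmt3l was the larger part of the DNMT3 family in double-knockout EBs, Smad2 knockout EBs and day 0 cells, and Dnmt3b in the other EBs. Dnmt3b made up 26.3 ± 3.65% of the family's TPM in double-knockout EBs, 30.3 ± 3.54% in Smad2 knockout EBs and 68.6 ± 1.56% in EBs labelled Smad3 knockout. Wild-type EBs had 79.9 ± 2.61% and day 0 cells had 16.5 ± 2.66% (SD, n = 2 each). Dnmt3l held 66.0 ± 2.94% in double-knockout EBs, 64.7 ± 4.66% in Smad2 knockout EBs and 21.2 ± 0.80% in EBs labelled Smad3 knockout. Wild-type EBs had 11.8 ± 0.78% and day 0 cells had 78.0 ± 1.61%. Dnmt3a held between 5.03% and 10.1% in the means of the 5 groups. The summed level of the family was 356 ± 44.3 TPM in double-knockout EBs, 226 ± 44.9 TPM in Smad2 knockout EBs and 369 ± 3.12 TPM in EBs labelled Smad3 knockout. Wild-type EBs had 640 ± 65.9 TPM and day 0 cells had 270.4 ± 23.0 TPM. Dnmt3l was the most abundant of all 8 transcripts in double-knockout EBs, Smad2 knockout EBs and day 0 cells, and Dnmt3b in EBs labelled Smad3 knockout and in wild-type EBs. The log2 ratio of Dnmt3b to Dnmt3a within a library averaged 1.76 in double-knockout EBs, 2.60 in Smad2 knockout EBs and 2.76 in EBs labelled Smad3 knockout. Wild-type EBs had 3.28 and day 0 cells had 1.59. RSEM gave Dnmt3l a mean length of 1652 bases and Dnmt3b one of 4154 bases in Smad2 knockout EBs. The libraries of Smad2 knockout EBs and day 0 cells had the higher FPKM sums, found where reads sit on shorter transcripts. How far this, or reads shared with Aire, moved the shares and sums was not tested.

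Neither maintenance gene was called between a mutant and wild-type EBs, though Dnmt1 in Smad2 knockout EBs was called under most alternatives that kept every library of the compared groups. Dnmt1 (ENSMUSG00000004099.16, chr9:20907209-20959888, minus strand) had 293 and 342 CPM in double-knockout EBs, 131 and 181 CPM in Smad2 knockout EBs and 173 and 177 CPM in EBs labelled Smad3 knockout. Wild-type EBs had 206 and 285 CPM and day 0 cells had 201 and 277 CPM. Double-knockout EBs were above every other library and the single knockouts were below both wild-type groups. No contrast with wild-type EBs passed the test, at 0.37 for double-knockout EBs (SE 0.24, adjusted p = 0.30), -0.66 for Smad2 knockout EBs (SE 0.24, adjusted p = 0.0590) and -0.48 for EBs labelled Smad3 knockout (SE 0.24, adjusted p = 0.338). For Smad2 knockout EBs the value passed under 8 of the 11 alternatives other than leaving out 1 library. Among these were log2(TPM + 1) (-1.25, adjusted p = 0.00227, median of all genes -0.51) and library totals (-0.85, adjusted p = 0.0246, median of all genes -0.20). It was 0.10 (adjusted p = 0.785) with the length trend removed. Wild-type EBs and day 0 cells differed by 0.04 (SE 0.24, adjusted p = 0.906). The value turned to -0.97 (adjusted p = 0.00962) with the length trend removed. On log2(TPM + 1) it was 0.73 (adjusted p = 0.0206), where the median of all genes was 0.63. Between mutants, Dnmt1 was higher in double-knockout than in Smad2 knockout EBs by 1.03 (SE 0.24, adjusted p = 0.00966) and than in EBs labelled Smad3 knockout by 0.86 (SE 0.24, adjusted p = 0.0407). The difference from Smad2 knockout EBs was 0.32 (adjusted p = 0.328) with the length trend removed, and its call was lost without Smad2 knockout replicate 1 and without double-knockout replicate 2 (highest adjusted p 0.0705). The call against EBs labelled Smad3 knockout was lost under library totals (0.83, adjusted p = 0.0518) and without any 1 of the 4 libraries compared (0.74 to 0.96 over all 10, highest adjusted p 0.232).

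Uhrf1 (ENSMUSG00000001228.14, chr17:56303321-56323486, plus strand), the reader of hemimethylated CpG that recruits DNMT1, had 247 and 257 CPM in double-knockout EBs, 260.0 and 262 CPM in Smad2 knockout EBs and 176 and 199 CPM in EBs labelled Smad3 knockout. Wild-type EBs had 191 and 304 CPM and day 0 cells had 376 and 407 CPM. Day 0 cells stood above all EB libraries, and the wild-type EB libraries overlapped those of all 3 mutants. Uhrf1 fell by 0.66 in wild-type EBs relative to day 0 (SE 0.22, adjusted p = 0.0279). That call was lost under library totals (-0.38, adjusted p = 0.170), turned to 0.13 (adjusted p = 0.644) on log2(TPM + 1), and was lost without either day 0 library, without wild-type EB replicate 1 and without either double-knockout library (-1.03 to -0.41 over all 10, highest adjusted p 0.112). Against wild-type EBs the differences were 0.03 in double-knockout EBs (SE 0.21, adjusted p = 0.947), 0.08 in Smad2 knockout EBs (SE 0.21, adjusted p = 0.796) and -0.40 in EBs labelled Smad3 knockout (SE 0.22, adjusted p = 0.374), none of them called. Of the TPM of the 3 catalytic methyltransferases, Dnmt1 held 45.8 ± 4.04% in double-knockout EBs, 26.2 ± 0.51% in Smad2 knockout EBs and 15.2 ± 0.09% in EBs labelled Smad3 knockout. Wild-type EBs had 10.8 ± 0.70% and day 0 cells had 40.6 ± 2.84% (SD, n = 2 each).

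**Figure D3:**
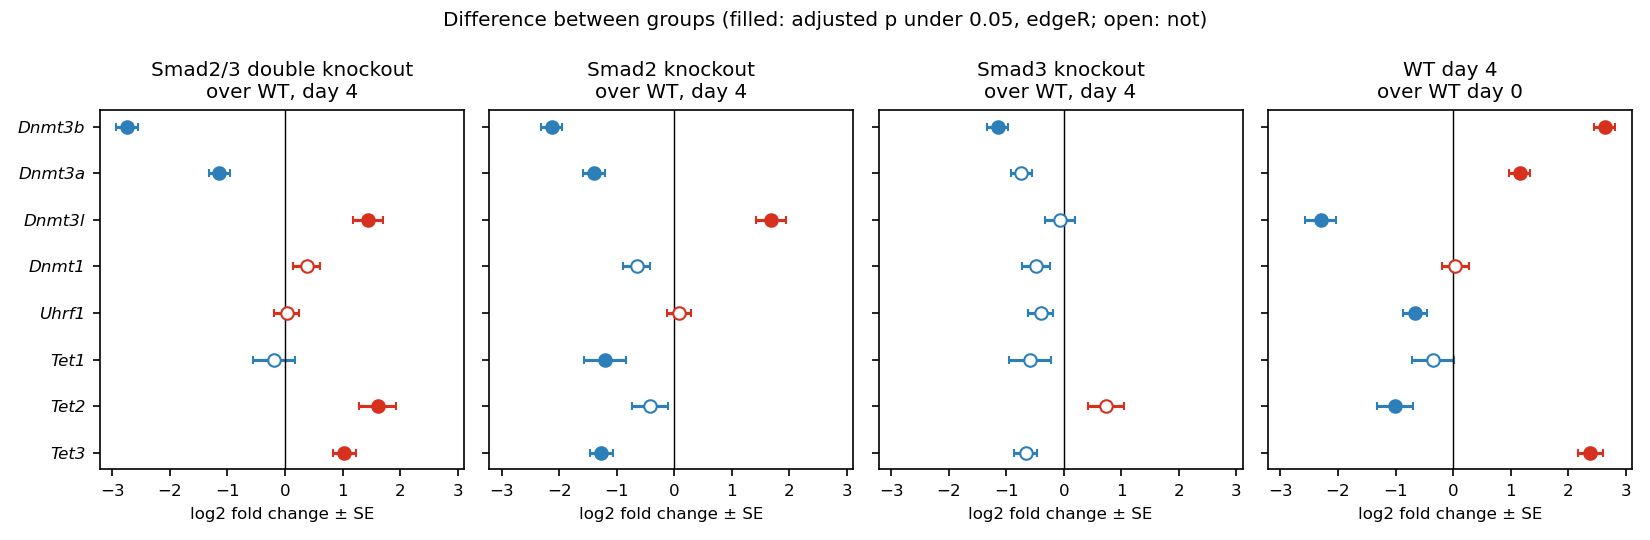
Log2 fold change with its standard error for the 8 genes in 4 comparisons, the 3 knockouts against wild-type EBs and wild-type EBs against day 0 cells, with filled symbols for an adjusted p under 0.05. Dnmt3b lies at -2.74, -2.13 and -1.15 in the 3 knockout comparisons and at 2.63 between wild-type EBs and day 0 cells, and Tet3 at 1.03 in double-knockout EBs but at -1.27 in Smad2 knockout EBs.

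Among the oxidases, Tet3 rose in wild-type EBs over day 0 cells and was higher still in double-knockout EBs. Tet3 (ENSMUSG00000034832.15, chr6:83362373-83459084, minus strand) had 59.1 and 67.9 CPM in double-knockout EBs, 13.5 and 12.3 CPM in Smad2 knockout EBs and 19.1 and 20.2 CPM in EBs labelled Smad3 knockout. Wild-type EBs had 27.5 and 34.7 CPM and day 0 cells had 5.11 and 6.77 CPM. No 2 groups overlapped, and double-knockout EBs were highest while day 0 cells were lowest. Tet3 rose by 2.39 in wild-type EBs over day 0 (SE 0.21, adjusted p = 6.32e-05), or by 0.83 with the length trend removed (adjusted p = 0.0237). Relative to wild-type EBs it rose by 1.03 in double-knockout EBs (SE 0.20, adjusted p = 0.00600) and fell by 1.27 in Smad2 knockout EBs (SE 0.20, adjusted p = 0.00257). The value in Smad2 knockout EBs was 0.02 (adjusted p = 0.973) with the length trend removed, while the rise in double-knockout EBs was then 1.15 (adjusted p = 0.00766). Without double-knockout replicate 2 the call in double-knockout EBs was lost (0.92, adjusted p = 0.0608). In EBs labelled Smad3 knockout the difference was -0.66 (SE 0.20, adjusted p = 0.154).

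Tet2 (ENSMUSG00000040943.12, chr3:133463679-133545139, minus strand), the TET enzyme gene that lacks a CXXC domain of its own, had 43.7 and 56.8 CPM in double-knockout EBs, 8.37 and 16.2 CPM in Smad2 knockout EBs and 29.6 and 25.1 CPM in EBs labelled Smad3 knockout. Wild-type EBs had 19.5 and 13.4 CPM and day 0 cells had 30.7 and 35.5 CPM. Double-knockout EBs were above all other libraries, and Smad2 knockout EBs overlapped wild-type EBs. Tet2 fell by 1.01 in wild-type EBs relative to day 0 (SE 0.32, adjusted p = 0.0236), by 2.18 with the length trend removed (adjusted p = 0.000667), and the call was lost under library totals (-0.73, adjusted p = 0.0707), without either day 0 library and without wild-type EB replicate 2 (-1.35 to -0.76 over all 10, highest adjusted p 0.104). Relative to wild-type EBs it rose by 1.61 in double-knockout EBs (SE 0.32, adjusted p = 0.00642), a call lost without double-knockout replicate 2 (1.41, adjusted p = 0.0535). The differences of -0.42 in Smad2 knockout EBs (SE 0.31, adjusted p = 0.323) and 0.73 in EBs labelled Smad3 knockout (SE 0.31, adjusted p = 0.273) were not called.

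Tet1 (ENSMUSG00000047146.17, chr10:62804570-62908996, minus strand), the main TET enzyme gene of stem cells, had 123 and 167 CPM in double-knockout EBs, 41.1 and 102 CPM in Smad2 knockout EBs and 115 and 104 CPM in EBs labelled Smad3 knockout. Wild-type EBs had 194 and 136 CPM and day 0 cells had 197 and 223 CPM. Both Smad2 knockout libraries were below all others, and they lay further apart in ratio than those of any other group. Tet1 fell by 1.21 in Smad2 knockout EBs relative to wild-type EBs (SE 0.37, adjusted p = 0.0321). The difference was -2.24 between the libraries of the first series of file names and -0.41 between those of the second, and the call was lost with the length trend removed (-0.04, adjusted p = 0.947), on log2(TPM + 1) (-1.24, adjusted p = 0.0631) and with only the compared groups fitted (-1.21, adjusted p = 0.0804). It was also lost without either day 0 library, wild-type EB replicate 1 or Smad2 knockout replicate 1 (-2.0 to -0.70 over all 10, highest adjusted p 0.142). The transcript length that RSEM gave Tet1 was 8956 and 4981 bases in Smad2 knockout EBs and 10729 and 10405 bases in wild-type EBs. Tet1 was not called between wild-type EBs and day 0 cells (-0.35, SE 0.37, adjusted p = 0.444), in double-knockout EBs (-0.19, SE 0.37, adjusted p = 0.753) or in EBs labelled Smad3 knockout (-0.59, SE 0.37, adjusted p = 0.443). With the length trend removed its difference between wild-type EBs and day 0 cells was -1.83 (adjusted p = 0.0026).

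Per transcript length Tet1 remained the largest part of the TET family in every group. Tet1 made up 55.5 ± 0.31% of the family's TPM in double-knockout EBs, 70.9 ± 12.6% in Smad2 knockout EBs and 68.9 ± 2.00% in EBs labelled Smad3 knockout. Wild-type EBs had 74.4 ± 4.81% and day 0 cells had 72.1 ± 0.17% (SD, n = 2 each). Tet3 made up 20.3 ± 2.02% in double-knockout EBs, 10.5 ± 8.76% in Smad2 knockout EBs and 9.13 ± 0.48% in EBs labelled Smad3 knockout. Wild-type EBs had 14.5 ± 4.77% and day 0 cells had 1.94 ± 0.13%. Tet2 held 24.1 ± 1.71% in double-knockout EBs, 18.6 ± 3.85% in Smad2 knockout EBs and 21.9 ± 2.48% in EBs labelled Smad3 knockout. Wild-type EBs had 11.1 ± 0.04% and day 0 cells had 26.0 ± 0.04%. The family summed to 49.2 ± 8.96 TPM in double-knockout EBs, 14.2 ± 10.3 TPM in Smad2 knockout EBs and 32.3 ± 0.83 TPM in EBs labelled Smad3 knockout. Wild-type EBs had 30.1 ± 6.69 TPM and day 0 cells had 23.5 ± 5.71 TPM.

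**Figure D4:**
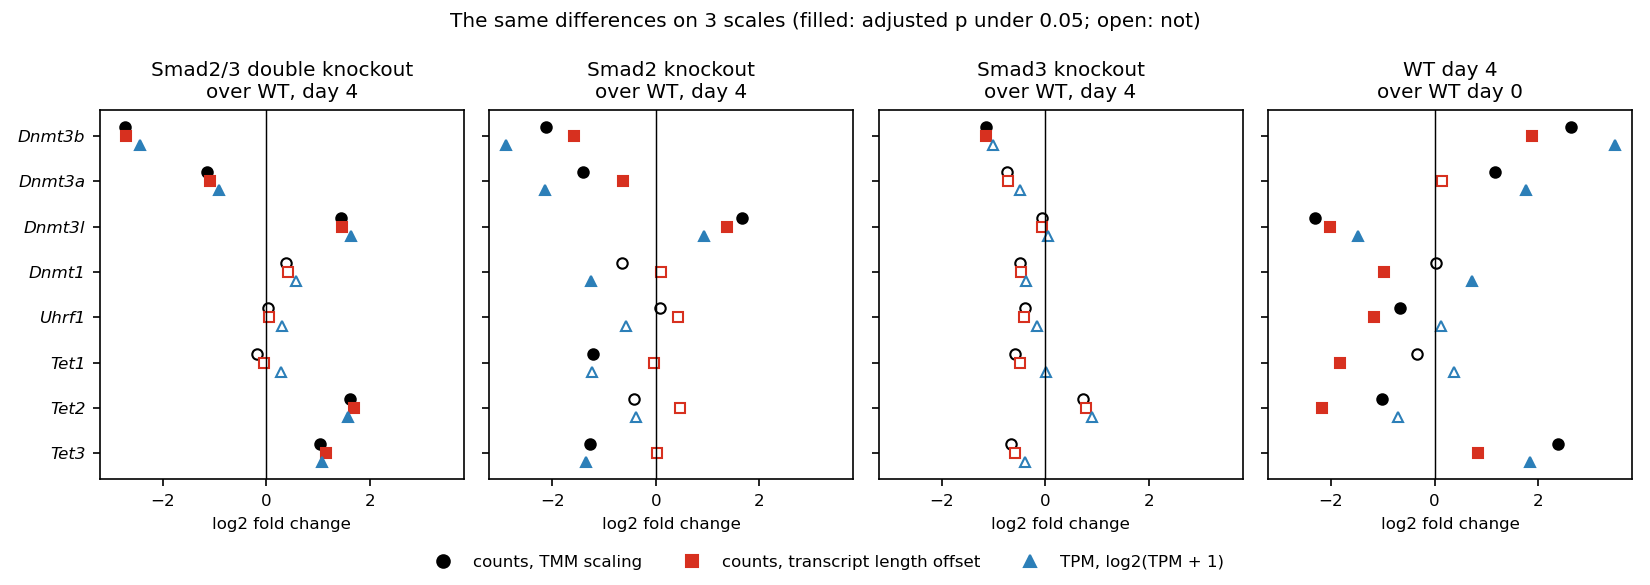
Log2 fold change of the 8 genes in the same 4 comparisons on 3 scales, counts scaled by TMM, the same counts with each library's trend with transcript length removed, and log2(TPM + 1), with filled symbols for an adjusted p under 0.05. In double-knockout against wild-type EBs the 3 values of Dnmt3b lie between -2.74 and -2.45, and in Smad2 knockout against wild-type EBs those of Tet3 lie between -1.35 and 0.02.

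Set against each other, the mutants differed at several of these genes. Between Smad2 knockout EBs and EBs labelled Smad3 knockout 5 of the 8 were called, against 33.6% of all genes. Dnmt3l was higher by 1.74 (adjusted p = 0.00259), and Dnmt3b (-0.98, adjusted p = 0.00474), Dnmt3a (-0.66, adjusted p = 0.0223), Tet2 (-1.15, adjusted p = 0.0222) and Tet3 (-0.61, adjusted p = 0.0438) were lower. With the length trend removed 2 were called, Dnmt3l at 1.43 (adjusted p = 0.00797) and Uhrf1 at 0.83 (adjusted p = 0.0284). Dnmt3b was then at -0.45 (adjusted p = 0.0855), Dnmt3a and Tet3 were above 0, at 0.09 and 0.59, and Tet2 was at -0.31 (adjusted p = 0.467). When 1 library was left out, Tet3 lost its call without 8 of the 10, all but the wild-type EB libraries (-0.67 to -0.54 over all 10, highest adjusted p 0.184). Dnmt3a (-0.75 to -0.57, highest adjusted p 0.118) and Tet2 (-1.70 to -0.75, highest adjusted p 0.117) lost theirs without either Smad3 knockout library and without Smad2 knockout replicate 1. Between double-knockout and Smad2 knockout EBs 4 were called, against 39.6% of all genes. Tet3 at 2.30 (adjusted p = 0.000279), Tet2 at 2.03 (adjusted p = 0.00188) and Dnmt1 at 1.03 were higher and Dnmt3b at -0.61 (adjusted p = 0.0241) was lower. Tet1 at 1.02 was not called (adjusted p = 0.0539). It was called under 9 of the 11 alternatives other than leaving out 1 library, and was at -0.01 with the length trend removed. Removing the length trend left Tet3 at 1.13 (adjusted p = 0.0103), Tet2 at 1.22 (adjusted p = 0.0136), Dnmt1 at 0.32 (adjusted p = 0.328) and Dnmt3b at -1.13 (adjusted p = 0.0022). The medians of all genes in this comparison were 0.65 on log2(TPM + 1) and 0.28 under library totals. Dnmt3b was at 0.45 (adjusted p = 0.0771) on log2(TPM + 1) and at -0.31 (adjusted p = 0.203) under library totals. Its call was lost without either double-knockout library, Smad2 knockout replicate 2 or Smad3 knockout replicate 1 (-0.78 to -0.43 over all 10, highest adjusted p 0.124). Between double-knockout EBs and EBs labelled Smad3 knockout 4 were called, against 15.5% of all genes. Tet3 at 1.69 (adjusted p = 0.000956), Dnmt3l at 1.51 (adjusted p = 0.00489) and Dnmt1 at 0.86 were higher and Dnmt3b at -1.59 (adjusted p = 0.000735) was lower. The Dnmt3l call was lost without Smad3 knockout replicate 1 (adjusted p = 0.0509).

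The knockout EBs at day 4 were also set against the wild-type stem cells at day 0, a comparison in which time, culture and genotype cannot be told apart. In double-knockout EBs 3 of the 8 were called, against 55.4% of all genes. Tet3 was higher by 3.42 (adjusted p = 1.31e-05), and Dnmt3l (-0.85, adjusted p = 0.0186) and Uhrf1 (-0.64, adjusted p = 0.0309) were lower. The medians of all genes there were 0.06 on CPM, 0.77 on log2(TPM + 1) and -0.07 with the length trend removed. Dnmt3b stood at -0.11 (adjusted p = 0.631) on CPM, at 1.05 (adjusted p = 0.00135) on log2(TPM + 1) and at -0.83 (adjusted p = 0.00283) with the length trend removed. With that trend removed Tet3 was at 1.98 (adjusted p = 0.000351), Uhrf1 at -1.13 (adjusted p = 0.00236), Tet1 at -1.87 (adjusted p = 0.00176) and Dnmt3a at -0.96 (adjusted p = 0.00267), while Dnmt3l lost its call (-0.55, adjusted p = 0.0849). Under library totals Dnmt3l (-0.45, adjusted p = 0.125) and Uhrf1 (-0.25, adjusted p = 0.367) were not called. The Uhrf1 call was lost without 6 of the 10 libraries in turn, all but those of Smad2 knockout and wild-type EBs (-0.70 to -0.58 over all 10, highest adjusted p 0.137). The Dnmt3l call was lost without day 0 replicate 1 and without double-knockout replicate 2 (-1.05 to -0.67, highest adjusted p 0.142). In Smad2 knockout EBs 3 were called, against 21.9% of all genes. Tet3 at 1.12 (adjusted p = 0.00582) was higher, and Tet1 at -1.55 (adjusted p = 0.0181) and Tet2 at -1.43 (adjusted p = 0.0133) were lower, with Dnmt3b at 0.50 (adjusted p = 0.0737). The Tet1 and Tet2 calls were lost without either day 0 library and without Smad2 knockout replicate 1 (highest adjusted p 0.0851 and 0.0746), and the Tet3 call without day 0 replicate 1 (0.93, adjusted p = 0.0643). In EBs labelled Smad3 knockout 4 were called, against 54.4% of all genes. Tet3 at 1.73 (adjusted p = 0.000218) and Dnmt3b at 1.49 (adjusted p = 0.000228) were higher, and Dnmt3l at -2.37 (adjusted p = 0.000161) and Uhrf1 at -1.06 (adjusted p = 0.00305) were lower. The Tet3 difference in EBs labelled Smad3 knockout was 0.25 (adjusted p = 0.423) with the length trend removed. On log2(TPM + 1) 0 of the 8 were called by limma between Smad2 knockout EBs and day 0 cells. On that scale Uhrf1 was at -0.02 in EBs labelled Smad3 knockout (adjusted p = 0.949) and at 0.44 in double-knockout EBs (adjusted p = 0.130), and Dnmt3l in double-knockout EBs at 0.15 (adjusted p = 0.582). The medians of all genes on it were 0.70 in EBs labelled Smad3 knockout and 0.77 in double-knockout EBs.

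Genes that work with the methylation machinery were counted by list, beside the same counts over all genes. Of all genes, 5622 were higher and 4517 lower in wild-type EBs than at day 0, 2993 higher and 3911 lower in Smad2 knockout than in wild-type EBs. There were 84 higher and 24 lower in EBs labelled Smad3 knockout, and 2105 higher and 2401 lower in double-knockout EBs. On log2(TPM + 1), 7098 were higher and 1487 lower in wild-type EBs than at day 0, and 800 higher and 6168 lower in Smad2 knockout EBs. There were then 97 higher and 6 lower in EBs labelled Smad3 knockout, and 2046 higher and 1021 lower in double-knockout EBs. The list counts below rest on CPM unless another scale is named.

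The partners of maintenance methylation (6 genes) had 4 lower and 0 higher in double-knockout EBs, where Cdca7, a partner of the remodeller HELLS, fell by 1.52 to 65.7 CPM, against 189 CPM in wild-type EBs (adjusted p = 0.00029). In Smad2 knockout EBs 4 were lower and 0 higher, with Hells at -1.01 (adjusted p = 0.0246, called under 17 of 21 alternatives), and 2 were lower with the length trend removed. In EBs labelled Smad3 knockout 0 of the 6 were called by edgeR, while 4 had an unadjusted p under 0.05. In wild-type EBs over day 0 cells 3 rose and 2 fell, with Uhrf2, a paralogue of Uhrf1, at 1.67 (adjusted p = 0.000183) and the ligase gene Lig1 at -0.91 (adjusted p = 0.0022). The list's median log2 fold changes were -0.68 in double-knockout EBs, -0.69 in Smad2 knockout EBs and -0.64 in EBs labelled Smad3 knockout, each against wild-type EBs. It was 0.43 in wild-type EBs against day 0 cells.

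Of the 7 histone methyltransferases tied to DNA methylation, 2 were lower in double-knockout EBs, including Suv39h2 of the H3K9 branch at -1.07 (adjusted p = 0.00665). In Smad2 knockout EBs 5 were lower and 0 higher, and in wild-type EBs over day 0 cells 6 were higher and 0 lower. The H3K36 methyltransferase gene Setd2 had the widest change in both, at -1.40 in Smad2 knockout EBs (adjusted p = 0.00281) and 1.5 in wild-type EBs (adjusted p = 0.000777). With the length trend removed the counts were 1 lower in Smad2 knockout EBs, and 2 higher and 1 lower in wild-type EBs. Of the 6 proteins that bind unmethylated CpG, 3 were lower in Smad2 knockout EBs and 3 higher in wild-type EBs over day 0 cells. The H3K4 methyltransferase gene Kmt2a was at -1.56 in Smad2 knockout EBs (adjusted p = 0.000926) and 2.47 in wild-type EBs (adjusted p = 3.67e-05). In double-knockout EBs 0 of the 6 were called by edgeR and 2 had an unadjusted p under 0.05. With the length trend removed 0 of the 6 were lower in Smad2 knockout EBs, where Kmt2a was at -0.03.

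Among 8 genes of methyl-CpG binding proteins and their relatives, 4 were higher and 0 lower in double-knockout EBs. They were led by Mbd2, a reader of methylated CpG, with 59.5 CPM against 16.0 CPM in wild-type EBs (1.89, adjusted p = 0.000766). In Smad2 knockout EBs 2 were higher and 3 lower, with Mbd3 of the NuRD complex at 1.4 (adjusted p = 0.0308, called under 13 of 21 alternatives) and Zbtb33 (Kaiso) at -1.74 (adjusted p = 0.00457). In wild-type EBs over day 0 cells 4 were higher and 1 lower, with Zbtb33 at 2.52 (adjusted p = 0.000394) and Mbd3 at -1.51 (adjusted p = 0.0159). Among 17 TET cofactors and base excision repair genes, 2 were higher and 3 lower in double-knockout EBs, 6 higher and 3 lower in Smad2 knockout EBs, 1 higher in EBs labelled Smad3 knockout, and 4 higher and 5 lower in wild-type EBs over day 0. Cxxc4, which encodes the separate CXXC partner of TET2, was at -3.81 in double-knockout EBs (adjusted p = 0.000689) and -1.93 in Smad2 knockout EBs (adjusted p = 0.00961). It had 7.13 CPM in wild-type EBs against 0.08 CPM in day 0 cells (adjusted p = 8.43e-05). Gadd45g, of a family linked to demethylation, was at 2.65 in double-knockout EBs (adjusted p = 0.0237), 3.14 in Smad2 knockout EBs (adjusted p = 0.00965) and -3.63 in wild-type EBs over day 0 (adjusted p = 0.0029). Gadd45b rose in EBs labelled Smad3 knockout by 1.98 (adjusted p = 0.0376, called under 13 of 21 alternatives).

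Inhibitors of methylation and protectors of imprints (5 genes) had 2 higher and 0 lower in double-knockout EBs, 2 higher and 1 lower in Smad2 knockout EBs, and 1 higher and 4 lower in wild-type EBs over day 0 cells. Prdm14, which represses the de novo enzymes in naive stem cells, had 7.58 CPM in double-knockout EBs, 5.85 CPM in Smad2 knockout EBs and 1.81 CPM in EBs labelled Smad3 knockout. Wild-type EBs had 3.79 CPM and day 0 cells had 19.97 CPM. Prdm14 rose in double-knockout EBs by 1.00 (adjusted p = 0.0328), fell in wild-type EBs relative to day 0 by 2.40 (adjusted p = 0.000265), and was not called in Smad2 knockout EBs (0.63, adjusted p = 0.114). Dppa3, whose product keeps UHRF1 off chromatin, averaged 18.3 ± 3.40 CPM in double-knockout EBs, 52.8 ± 44.6 CPM in Smad2 knockout EBs and 2.98 ± 0.56 CPM in EBs labelled Smad3 knockout. Wild-type EBs had 6.78 ± 0.28 CPM and day 0 cells had 21.9 ± 3.76 CPM (SD, n = 2 each). Dppa3 rose in Smad2 knockout EBs by 2.96 (adjusted p = 0.00393), with 2 libraries that lay far apart and values between 1.65 and 3.64 over 21 alternatives. It was not called in double-knockout EBs (1.43, adjusted p = 0.0724). Zfp57, which protects imprints, was at 1.32 in double-knockout EBs (adjusted p = 0.00344) and -2.75 in wild-type EBs over day 0 (adjusted p = 5.87e-05). Zfp445, which shares that role, was at -1.74 in Smad2 knockout EBs (adjusted p = 0.00142) and 1.93 in wild-type EBs (adjusted p = 0.00027).

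Germline genes that promoter methylation keeps silent (14 genes) had 3 higher and 0 lower in double-knockout EBs, 1 higher in Smad2 knockout EBs, and 7 lower and 0 higher in wild-type EBs over day 0 cells. Hormad1, a meiotic chromosome axis gene, had 17.1 CPM in double-knockout EBs against 6.31 CPM in wild-type EBs (1.43, adjusted p = 0.00444) and fell by 2.78 in wild-type EBs relative to day 0 (adjusted p = 9.93e-05). Stk31 was at 0.67 in Smad2 knockout EBs (adjusted p = 0.0446), called under 6 of 21 alternatives. Of 12 genes of methyl donor supply, 4 were lower in double-knockout EBs with Shmt1 at -1.22 (adjusted p = 0.00333). There were 1 higher and 3 lower in Smad2 knockout EBs, and 3 higher and 4 lower in wild-type EBs over day 0. Mat2a, which makes S-adenosylmethionine, was at -1.38 in Smad2 knockout EBs (adjusted p = 0.00144) and 1.87 in wild-type EBs (adjusted p = 0.000116). Tdh, the threonine dehydrogenase of stem cells, was at 1.22 in Smad2 knockout EBs (adjusted p = 0.0407) and -3.01 in wild-type EBs (adjusted p = 0.000527). The Tdh value in Smad2 knockout EBs was called under 8 of 21 alternatives and was 0.28 (adjusted p = 0.433) without Smad2 knockout replicate 2.

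DNMT1 and UHRF1 are tied to S phase, so 12 DNA replication genes were counted beside them. In double-knockout EBs 6 were lower and 0 higher, with Mcm4 at -0.87 (adjusted p = 0.0130). In Smad2 knockout EBs 2 were higher and 2 lower, with Rpa2 at 0.64 (adjusted p = 0.0189, but -0.08 on log2(TPM + 1)) and Pola1 at -1.41 (adjusted p = 0.00305). In wild-type EBs over day 0 cells 6 were lower and 0 higher, with Cdt1 at -1.58 (adjusted p = 0.00528), a split that was 4 higher and 1 lower on log2(TPM + 1). In EBs labelled Smad3 knockout 0 of these 12 genes were called by edgeR, while 8 had an unadjusted p under 0.05. Gadd45b was the single gene called over the 9 lists of the methylation machinery, whose medians there lay between -0.64 and -0.03.

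EBs are mixtures, and in bulk RNA fewer cells of a type and less RNA per cell cannot be told apart. Markers of other cell types moved with the groups in which the 8 genes moved. The TPM sums below also carry shifts of that scale. On log2(TPM + 1) the median of all genes was -0.51 in Smad2 knockout and 0.13 in double-knockout EBs, against wild-type EBs. The 8 trophoblast markers summed to 2193 to 2798 TPM in double-knockout EBs, 1084 to 1724 TPM in Smad2 knockout EBs and 702 to 865 TPM in EBs labelled Smad3 knockout. Wild-type EBs had 224 to 391 TPM and day 0 cells had 82.3 to 91.6 TPM. Of the 8 markers 7 were higher in double-knockout and 8 of 8 in Smad2 knockout EBs than in wild type. In EBs labelled Smad3 knockout 2 were higher (median log2 fold change of the 8 1.28), where 0.555% of all genes were called. The 6 primed epiblast markers, the cells in which Dnmt3b is known to be high, summed to 84.2 to 87.5 TPM in double-knockout EBs, 74.5 to 87.1 TPM in Smad2 knockout EBs and 298 to 303 TPM in EBs labelled Smad3 knockout. Wild-type EBs had 442 to 450 TPM and day 0 cells had 25.0 to 40.6 TPM. Of these 6 markers 6 were lower in double-knockout and 5 in Smad2 knockout EBs, and 6 were higher in wild-type EBs than at day 0.

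The 8 naive pluripotency markers, from cells in which Dnmt3l and Prdm14 are known to be high, summed to 242 to 326 TPM in double-knockout EBs, 123 to 257 TPM in Smad2 knockout EBs and 74.8 to 80.7 TPM in EBs labelled Smad3 knockout. Wild-type EBs had 122 to 149 TPM and day 0 cells had 611 to 799 TPM. Of these 8 markers 3 were higher in double-knockout and 5 in Smad2 knockout EBs than in wild type, and 8 were lower in wild-type EBs than at day 0. Their median log2 fold changes on CPM against wild-type EBs were 0.81 in double-knockout and 1.21 in Smad2 knockout EBs. Primitive streak markers summed to 3.46 to 3.80 TPM in double-knockout EBs, 3.30 to 71.3 TPM in Smad2 knockout EBs and 131 to 147 TPM in EBs labelled Smad3 knockout. Wild-type EBs had 219 to 234 TPM and day 0 cells had 1.18 to 1.68 TPM. EdgeR called 5 of these 5 lower in double-knockout and 1 in Smad2 knockout EBs, each against wild-type EBs. Extraembryonic endoderm markers summed to 54.2 to 79.4 TPM in double-knockout EBs, 11.7 to 12.8 TPM in Smad2 knockout EBs and 187 to 190 TPM in EBs labelled Smad3 knockout. Wild-type EBs had 256 to 270.3 TPM and day 0 cells had 1.86 to 2.59 TPM, with Ttr at 0 in day 0 cells. Of these 8 markers 7 were called lower in double-knockout and 8 in Smad2 knockout EBs than in wild type. Core pluripotency markers summed to 573 to 635 TPM in double-knockout EBs, 939 to 996 TPM in Smad2 knockout EBs and 1063 to 1146 TPM in EBs labelled Smad3 knockout. Wild-type EBs had 1456 to 1724 TPM and day 0 cells had 2145 to 2589 TPM. Against wild-type EBs, edgeR called 4 of these 5 markers lower in double-knockout EBs and 1 of them in Smad2 knockout EBs. In EBs labelled Smad3 knockout 1 was called lower. Their median log2 fold changes in these 3 comparisons were -0.83, -0.20 and -0.65. Neuroectoderm markers summed to 6.56 to 8.86 TPM in double-knockout EBs and 6.29 to 7.1 TPM in Smad2 knockout EBs. They summed to 31.3 to 32.4 TPM in EBs labelled Smad3 knockout. Wild-type EBs had 30.9 to 31.5 TPM and day 0 cells had 4.26 to 5.48 TPM. Of these 5 markers 1 was called higher and 1 lower in double-knockout EBs, and likewise in Smad2 knockout EBs. Their median log2 fold changes on CPM against wild-type EBs were 0.22 and 0.92, opposite in direction to the TPM sums. The 6 fibroblast markers summed to between 12.9 and 28.7 TPM over all libraries. Against wild-type EBs, 3 of them were called higher and 2 lower in Smad2 knockout EBs (median log2 fold change 1.64). In double-knockout EBs 1 was called higher and 2 lower (median 0.88). Lum and Dcn were at 0 in day 0 cells, and Lum was at 0 in wild-type EBs. The part of these markers' cells in the levels of the 8 genes was not tested.

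As a description over these libraries, which share groups and line, Dnmt3a and Dnmt3b had a Pearson correlation of log2 CPM of 0.90, Dnmt3b and Dnmt3l one of -0.84 and Dnmt3l and Uhrf1 one of 0.79. Among 9635 genes with at least 10 CPM on average, those with the pattern most like Dnmt3b were Plch1 (0.98), Aff3 (0.98) and Il17rd (0.97). For Dnmt3a they were Bend3 (0.99), Ank3 (0.96) and Champ1 (0.96). For Dnmt3l they were Gstp2 (0.99), Tuba3a (0.98) and Mok (0.98). Dnmt1 was most like Ogdh (0.965), Nup214 (0.96) and G6pdx (0.95). Uhrf1 was most like Daxx (0.97) and Zbtb45 (0.97). For Tet1 the nearest were Pole (0.96), Cbfa2t2 (0.95) and Rest (0.94). Tet2 was nearest to Pfkp, Atg14 and Nos1 (0.94 each), and Tet3 to Igf2bp2 (0.997), Slc11a2 (0.99) and Pcyox1 (0.99).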

How the data were processed

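RNA-seq of 10 libraries was analysed, 2 in each of 5 groups taken from the labels. Per the file headers, the deposited tables hold RSEM gene estimates: expected counts, TPM and FPKM, with a mean transcript length. The deposited expected counts are fractional assignments of reads to genes, while TPM and FPKM were scaled by the authors for length and library. Tools listed in the submitters' processing notes, with no role or order, are STAR, Bowtie2, HOMER, RSEM and FastQC 0.11.5, and the build is mm10; the annotation version and the strandedness are not given in the sources used here. Of 53379 gene identifiers, 53274 matched GENCODE M21 without their version and 105 did not; 79 symbols had more than 1 identifier.

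Expected counts were rounded, filtered with filterByExpr and fitted over all 5 groups with edgeR 4.0.16 (R 4.3.3, TMM, quasi-likelihood, Benjamini-Hochberg over 19470 genes). The biological coefficient of variation was 0.248 and the residual degrees of freedom were 5. The standard error is the log2 fold change divided by the square root of F. On simulated counts for Smad2 knockout against wild-type EBs (19018 genes, 200 of them changed), the test found 14% of the genes changed 2-fold and 83% of those changed 4-fold, gave 0 wrong signs, and called 12 unchanged genes. In the data 6904 genes were called in that comparison. The share found depends on how many genes change, so these shares need not hold for the data. Depth per library lay between 35733249 and 53672980 expected counts, and replicates had a Pearson correlation of log2(TPM + 1) between 0.981 and 0.994.

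Alternatives were DESeq2 1.42.0, limma 3.58.1 on log2(TPM + 1) and log2(TPM + 0.1) for genes averaging 1 TPM or more, RLE size factors, library totals, no filter, a filter of 1 CPM in 4 libraries, the compared groups alone, blocks for replicate number and for series of file names, an offset that removes each library's trend of counts with transcript length, and leaving out each library. Named genes were the 8 genes, Prdm14, Dppa3, Smad2, Smad3, the called gene of each list with the largest change in each direction among those with at least 5 CPM in the higher group, and the 3 genes with the most similar pattern to each of the 8. One of these similar genes is not reported here. The 8 genes and all lists were chosen with earlier results of these data known. Promoters are RefSeq's. Protein sequences and the 14 ChIP-seq samples were not used here.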

Additional observations from a re-analysis of the deposited data

Results flagged for a closer look

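For 3 of the 8 genes an interaction of the Smad2 and Smad3 genotypes was called. It was measured as the difference of double-knockout EBs from EBs labelled Smad3 knockout, minus the difference of Smad2 knockout from wild-type EBs, and tested as an interaction in edgeR with Benjamini-Hochberg adjustment, where 18.9% of 19470 genes were called. Tet3 had an interaction of 2.96 (SE 0.29, adjusted p = 0.00208). It was at 1.69 in double-knockout EBs over EBs labelled Smad3 knockout, and at -1.27 in Smad2 knockout over wild-type EBs. Over 21 alternatives, which for this test were chosen after seeing the data, the Tet3 value lay between 1.71 and 3.63 and was called in 21. The lowest, 1.71 (adjusted p = 0.0244), was with the length trend removed, where Smad2 knockout differed from wild-type EBs by 0.02 (adjusted p = 0.973). Dnmt1 had an interaction of 1.51 (SE 0.34, adjusted p = 0.0188), between 0.78 and 2.24 and called in 15 of 21 alternatives. Dnmt3a had an interaction of 1.00 (SE 0.26, adjusted p = 0.0293), between 0.25 and 1.78 and called in 13 of 21. With the length trend removed Dnmt1 was at 0.78 (adjusted p = 0.159) and Dnmt3a at 0.25 (adjusted p = 0.556). The other 5 genes had adjusted p-values between 0.0586 and 0.777. The FPKM sums of the Smad2 knockout libraries, 1022065 and 1093663, were above those of the other EB libraries, and the labelled Smad3 knockout is not checked by its Smad3 RNA. Smad3 RNA was lower in double-knockout EBs than in EBs labelled Smad3 knockout (log2 -0.87, adjusted p = 0.00677 in edgeR). The Smad3 state of these groups may therefore differ, and each knockout is 1 cell line. An effect of Smad2 loss cannot be told apart from such differences.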

How the results depend on the processing

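Of the 80 fold changes of 8 genes in 10 comparisons under 21 alternatives, values called by edgeR kept call and direction 738 times, lost the call 91 times and turned 11 times; those not called stayed so 684 times, gained a call 96 times and turned 60 times. The cause of these changes was not tested. The median of all genes was 0.632 on log2(TPM + 1), 0.377 under library totals and 0.0967 on CPM in wild-type EBs over day 0. Against wild-type EBs it was -0.507, -0.199 and -0.0117 on these scales in Smad2 knockout, 0.0352, 0.0961 and -0.0427 in Smad3 knockout, and 0.127, 0.0628 and -0.0468 in double-knockout EBs. In double over Smad2 knockout EBs it was 0.650, 0.277 and -0.018, and in Smad2 over Smad3 knockout EBs -0.57, -0.348 and -0.0219. Over day 0 it was 0.695, 0.515 and 0.092 in Smad3 knockout, and 0.771, 0.451 and 0.0593 in double-knockout EBs. With 2 libraries a group, most 2-fold changes were missed in the simulation, where few genes changed.

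Smad2 knockout over wild-type EBs had 5 genes called and 3 with the length trend removed. Smad3 knockout over wild-type EBs had 1, against 2 with no filter and with DESeq2, 0 with the compared groups alone (0 of all genes) and on both TPM scales, and 0 to 1 without 1 library; over all genes 108 were called, 1096 with no filter, 757 by DESeq2, and 3 (without Smad3 knockout replicate 1) to 2709 (without wild-type EB replicate 2) when 1 library was left out. Double-knockout over wild-type EBs had 5, and 3 to 5 without 1 library. Smad2 over Smad3 knockout EBs had 5, 2 with the length trend removed, and 2 to 6 without 1 library. Double over Smad2 knockout EBs had 4, 7 on both TPM scales, and 2 to 5 without 1 library. Double over Smad3 knockout EBs had 4, 7 with the compared groups alone, and 2 to 6 without 1 library. Smad2 knockout EBs over day 0 had 3, 6 with the file-name block, 5 with the length trend removed, 0 on log2(TPM + 1), and 0 to 6 without 1 library. Smad3 knockout EBs over day 0 had 4, and 7 with the length trend removed. Double-knockout EBs over day 0 had 3, 5 with the compared groups alone, the length trend removed or log2(TPM + 1), and 1 to 3 without 1 library.

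The replicate block left 6, 6, 1, 5, 5, 5, 4, 4, 4 and 3 genes called in the order wild-type EBs over day 0, Smad2, Smad3 and double knockout over wild-type EBs, Smad2 over Smad3, double over Smad2, double over Smad3, and Smad2, Smad3 and double knockout over day 0. Same-numbered libraries deviated together among 4 groups (correlations 0.113 to 0.51) but not with the double knockout (-0.18 to -0.035), so the numbers were not taken as pairs. In those 4 groups replicate 2 is of the second series of file names, while both double-knockout libraries are of the first. The main fit had no term for the series. With a block for it, 8088 genes were called in Smad2 knockout over wild-type EBs, against 6904. In Smad3 knockout over wild-type EBs 278 were called, against 108.

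Directions turned as follows, as log2 values. In wild-type EBs over day 0, Dnmt1 was -0.0169 with RLE, -0.0065 with DESeq2 and -0.97 with the length trend removed. With that trend removed, Smad2 knockout over wild-type EBs gave Dnmt1 0.10, Tet2 0.47 and Tet3 0.0153, Smad2 over Smad3 knockout gave Dnmt1 0.57, Dnmt3a 0.0873, Tet1 0.45 and Tet3 0.59, double over Smad2 knockout gave Dnmt3a -0.47, Dnmt3l 0.0882 and Tet1 -0.0109, Smad3 knockout over day 0 gave Dnmt3a -0.58, and double knockout over day 0 gave Dnmt1 -0.55, Dnmt3a -0.96 and Tet2 -0.49. With library totals, Smad2 knockout over wild-type EBs gave Uhrf1 -0.11, Smad3 knockout over wild-type EBs gave Dnmt3l 0.0776 (0.0237 with the compared groups alone), double over Smad2 knockout gave Dnmt3l 0.0858 and Uhrf1 0.25 (0.0644 with the file-name block), Smad3 knockout over day 0 gave Tet2 0.14 and double knockout over day 0 gave Dnmt3b 0.28.

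On log2(TPM + 1) and log2(TPM + 0.1), wild-type EBs over day 0 gave Uhrf1 0.1339 and 0.135 and Tet1 0.38 and 0.40. Smad2 knockout over wild-type EBs gave Uhrf1 -0.58 and -0.58, and Rpa2 -0.0779 and -0.0789. Smad3 knockout over wild-type EBs gave Dnmt3l 0.0637 and 0.0645, and Tet1 0.0073 and 0.0087. Double knockout over wild-type EBs gave Tet1 0.28 and 0.29. Smad2 over Smad3 knockout gave Uhrf1 -0.42 and -0.43. Double over Smad2 knockout gave Dnmt3b 0.45 and 0.46, Dnmt3l 0.69 and 0.70, and Uhrf1 0.88 and 0.89. Smad3 knockout over day 0 gave Dnmt1 0.36 and 0.36, Tet1 0.39 and 0.41, and Tet2 0.20 and 0.23. Double knockout over day 0 gave Dnmt3b 1.05 and 1.07, Dnmt3l 0.15 and 0.15, Uhrf1 0.44 and 0.44, and Tet1 0.66 and 0.69. On expected counts in place of TPM, the log2 ratio of Uhrf1 to Dnmt1 was -0.33 in double-knockout EBs and -0.0079 in wild-type EBs.

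Leaving out 1 library spanned 0 for Dnmt1 in wild-type EBs over day 0 (-0.21 to 0.29), Uhrf1 in Smad2 knockout (-0.16 to 0.45) and double-knockout EBs (-0.21 to 0.40) over wild type, Dnmt3l in Smad3 knockout (-0.24 to 0.17) and Tet1 in double-knockout EBs (-0.43 to 0.15) over wild type, Dnmt1 in Smad2 over Smad3 knockout (-0.42 to 0.0457), Dnmt3l in double over Smad2 knockout (-0.54 to 0.16), and Dnmt3a in double knockout over day 0 (-0.14 to 0.18).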
